A study of Mus musculus with 4 samples.

Results

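The 8 genes described here, Pck1, G6pc, Fbp1, Pklr, Khk, Mlxipl, Slc2a2 and Pfkfb1, govern the traffic of sugar through the liver in both directions. They were taken by symbol from 24346 gene symbols listed for each library, and all 8 were above 0 FPKM, a read abundance corrected for transcript length and library depth, in all 4 libraries. These were made from whole liver of male ob/ob mice, which lack leptin and become obese. In CD the chow held 10% sucrose, 23% casein and 5% corn oil. In WD, a Western diet, sucrose was 34%, cocoa butter 20% and casein 20% of the food. Cholesterol made up 1% of both. CD+7KC and WD+7KC were the same diets with 0.01% of 7-ketocholesterol (7KC), an oxidation product of cholesterol. Feeding began at 6 weeks of age and went on for 4 weeks in every group. All 4 groups therefore carried the ob/ob mutation and ate 1% cholesterol, and lean or cholesterol-free animals are not among them. Each group had 1 library, the sources used here do not state whether it held RNA of 1 mouse or of several, and so differences below cannot be set against replicates and carry no p-values.

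Liver cells make glucose from lactate, glycerol and amino acids between meals and burn or store it after a meal. Phosphoenolpyruvate carboxykinase, fructose-1,6-bisphosphatase and glucose-6-phosphatase catalyse the steps that run only toward glucose, liver pyruvate kinase and ketohexokinase take glucose and fructose down toward pyruvate, and the bifunctional enzyme encoded by Pfkfb1 makes and removes fructose 2,6-bisphosphate, the signal that favours glycolysis over gluconeogenesis. Fasting hormones raise transcription of Pck1 and G6pc and insulin lowers it, while the glucose-sensing factor ChREBP, encoded by Mlxipl, drives Pklr and genes of fat synthesis. GLUT2, encoded by Slc2a2, carries glucose across the hepatocyte membrane both ways.

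The 300 bases around the transcription starts are shown for 4 of the genes, because G6pc and Mlxipl varied most between libraries, Pck1 is the enzyme that is regulated with G6pc by the same hormones, and Pklr is the best known ChREBP target. The windows are from RefSeq (GRCm38.p6) and run from 250 bases before the start to 50 bases after it, all on the plus strand. They lie at chr11:101367466-101367765 (G6pc), chr2:173152823-173153122 (Pck1), chr3:89136373-89136672 (Pklr, the downstream of its 2 windows, inside the annotated gene) and chr5:135089640-135089939 (Mlxipl, the upstream of its 2 windows). Capitals mark matches to the motifs searched.
G6pc: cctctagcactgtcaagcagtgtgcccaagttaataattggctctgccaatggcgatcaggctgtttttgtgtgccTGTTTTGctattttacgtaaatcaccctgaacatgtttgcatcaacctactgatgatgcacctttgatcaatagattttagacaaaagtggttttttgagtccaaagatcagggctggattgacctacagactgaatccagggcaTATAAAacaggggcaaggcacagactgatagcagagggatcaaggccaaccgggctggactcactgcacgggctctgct
Pck1: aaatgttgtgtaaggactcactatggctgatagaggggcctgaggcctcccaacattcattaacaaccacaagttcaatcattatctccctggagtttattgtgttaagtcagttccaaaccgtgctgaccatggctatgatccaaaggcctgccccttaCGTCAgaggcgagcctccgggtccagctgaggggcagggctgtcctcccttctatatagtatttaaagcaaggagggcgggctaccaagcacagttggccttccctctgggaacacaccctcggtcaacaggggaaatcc
Pklr: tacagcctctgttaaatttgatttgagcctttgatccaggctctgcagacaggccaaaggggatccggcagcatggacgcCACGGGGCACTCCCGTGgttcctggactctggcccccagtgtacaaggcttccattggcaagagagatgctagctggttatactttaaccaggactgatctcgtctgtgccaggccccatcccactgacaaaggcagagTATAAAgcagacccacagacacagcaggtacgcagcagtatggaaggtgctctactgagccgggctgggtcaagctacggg
Mlxipl: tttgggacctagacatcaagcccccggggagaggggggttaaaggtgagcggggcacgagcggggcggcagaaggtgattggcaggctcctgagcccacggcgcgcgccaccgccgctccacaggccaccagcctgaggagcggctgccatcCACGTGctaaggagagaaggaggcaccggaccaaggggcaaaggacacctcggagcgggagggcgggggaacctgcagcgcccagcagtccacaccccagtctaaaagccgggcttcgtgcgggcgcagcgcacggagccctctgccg

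The G6pc window held TGTTTTG, an insulin response type element, 174 to 168 bases before the start, and a TATA box, TATAAA, 29 to 24 bases before it. Among 32851 windows of the same length, 6.28% held TGTTTTG and 13.6% held TATAAA on either strand. The Pck1 window held CGTCA, the core of the cyclic AMP response element, 90 to 86 bases before the start, as did 20.8% of windows. In the Pklr window, 170 to 154 bases before the start, lay a match to the carbohydrate response element bound by ChREBP and its partner, which 0.557% of windows held, and a TATA box 31 to 26 bases before the start. The Mlxipl window held CACGTG, the E-box, 98 to 93 bases before the start, as did 7.15% of windows. Of the other windows of the 8 genes, that of Khk held CACGTG at 71 to 66 bases and CGTCA at 74 to 70 bases before the start, overlapping, and the third of 4 Pfkfb1 windows held TATAAA at 193 to 188 bases. No window of the 8 genes held the full element TGACGTCA (1.79% of windows, and every match to it also holds CGTCA), the FoxO type element TGTTTAC (3.65%) or the HNF1 element (0.00913%). These matches describe letters and not binding. FPKM was given per gene, so transcripts from the several starts of Pklr, Mlxipl and Pfkfb1 cannot be told apart.

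The steps between low FPKM values correspond to about 9430000 fragments in WD and 11000000 to 12100000 in the other libraries, which put 315 to 23533 estimated reads on each of the 8 genes. FPKM values summed to 696062 to 715605 in CD, CD+7KC and WD but to 602059 in WD+7KC, so the scaling matters for comparisons with that library and changes are also given after rescaling to equal sums. That rescaling moved the median log2 change of the 10686 genes whose mean reached 1 FPKM (the genes tested, which include all 8) from -0.03 to 0.18 in WD+7KC relative to WD, and from -0.02 to 0.18 in WD+7KC relative to CD+7KC. Albumin was the highest gene in every library, and 10 hepatocyte markers summed to 59300 and 49800 FPKM in CD and CD+7KC, and 60000 and 47900 FPKM in WD and WD+7KC. Summed macrophage and Kupffer cell markers were 266, 403, 455 and 858 FPKM and summed endothelial markers 59.6, 87.5, 47.7 and 136 FPKM in the same order. In bulk liver, fewer cells of a type and less RNA per cell cannot be told apart. Pck1, G6pc and Fbp1 are also enzymes of kidney and intestine, Khk of intestine too, and 8 kidney and intestine markers were read beside them. Slc12a1 and Cdx2 were listed at 0 in all 4 libraries, Umod, Slc34a1, Aqp2 and Vil1 were at most 0.156 FPKM, Lct was at 2.49 FPKM in WD and at most 0.0275 in the others, and Fabp2 was at 208 to 289 FPKM.

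The 8 genes kept nearly the same order of level in all libraries, from the highly transcribed Fbp1, Pck1 and Khk at 582 to 917 FPKM, through G6pc, Pklr and Slc2a2, to Mlxipl and Pfkfb1. Fbp1 and Pck1 ranked between 80 and 116 among the genes tested, and Pfkfb1 between 2756 and 2979. Fbp1 was above Pck1 in every library, but in CD, at 862 and 849 FPKM, they were closer to each other than each was to its own level in CD+7KC. G6pc was above Pklr in CD and CD+7KC and below it in WD and WD+7KC, where in WD+7KC it was also below Slc2a2. Mlxipl stood clearly above Pfkfb1 in CD and CD+7KC, and next to it in WD, at 22.4 FPKM against 21.7. The ratio of the highest to the lowest library was 2.82 for Mlxipl and 2.71 for G6pc, and between 1.11 and 1.28 for the other 6 genes.

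**Figure D1:**
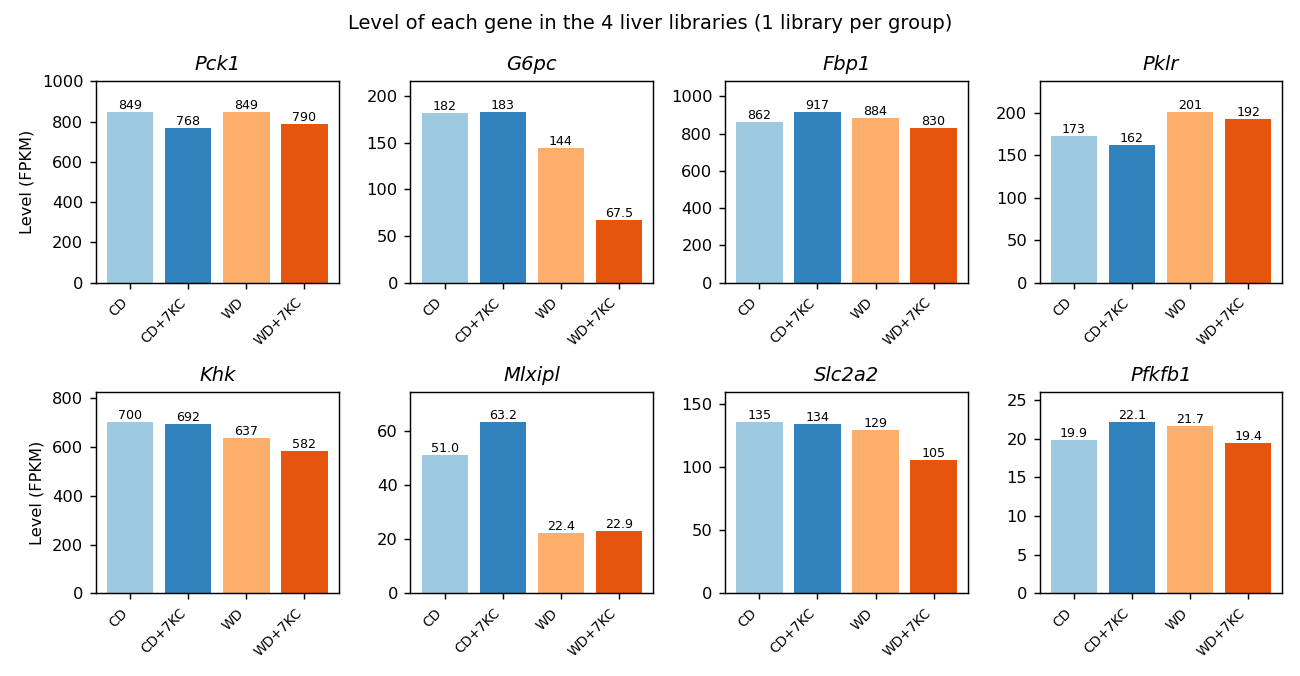
FPKM of each of the 8 genes (y axis, from 0) in the CD, CD+7KC, WD and WD+7KC libraries (x axis, 1 bar per library, no replicates). G6pc was lowest in WD+7KC at 67.5 FPKM, Mlxipl was at 22.4 and 22.9 FPKM in the WD libraries against 51.0 and 63.2 in the CD libraries, and the other genes were nearly level.

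G6pc encodes the catalytic subunit of glucose-6-phosphatase, the last step before free glucose leaves the hepatocyte, and lies on chromosome 11 (101367561 to 101377903, plus strand, GRCm38). Its level was 144 FPKM in WD and 67.5 in WD+7KC, against 182 in CD and 183 in CD+7KC. The CD libraries were alike, WD was lower, and WD+7KC was lowest. WD+7KC was 53.2% below WD, a log2 change of -1.10 with an exact (Clopper-Pearson) 95% counting interval of -1.18 to -1.01, which covers counting error between the libraries and not variation between mice. With equal sums the change was -0.88 (counting interval -0.97 to -0.80), which no longer passes 1 on the log2 scale. The median change of all genes tested was -0.03 as deposited and 0.18 with equal sums, and G6pc stood 1.06 to 1.07 below it. Rescaling a library shifts G6pc and the median almost alike, so this distance is no check on the change. It depends on the genes compared, since the 4671 genes averaging at least 10 FPKM, which include G6pc, had a median of -0.12 as deposited. In the deposited scaling only 59 of the 10686 genes, 0.552%, had a lower change. Added to CD, 7KC left the estimate at 0.01 (-0.05 to 0.07), and the 7KC change under WD was lower than that under CD by 1.11 on the log2 scale, or by 0.93 with equal sums. WD relative to CD gave -0.33 (-0.40 to -0.26) and WD+7KC relative to CD+7KC -1.44 (-1.52 to -1.36), or -1.23 with equal sums.

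Pck1 encodes the cytosolic phosphoenolpyruvate carboxykinase that commits oxaloacetate to gluconeogenesis, on chromosome 2 (173153048 to 173159273, plus strand). It was at 849 FPKM in CD and 768 in CD+7KC, against 849 in WD and 790 in WD+7KC. Both 7KC libraries were a little below their diet's library without it, with changes of -0.15 (-0.17 to -0.12) under CD and -0.10 (-0.13 to -0.075) under WD, although the latter was 0.11 with equal sums. The ratio of G6pc to Pck1 within a library was 0.214 in CD and 0.238 in CD+7KC, and 0.17 in WD and 0.085 in WD+7KC. These ratios do not depend on how libraries are scaled. Fbp1 encodes fructose-1,6-bisphosphatase, the step between Pck1 and G6pc, on chromosome 13 (62864753 to 62888282, minus strand). Its level was 862 and 917 FPKM in CD and CD+7KC, and 884 and 830 FPKM in WD and WD+7KC, and its 4 log2 changes lay between -0.14 and 0.09, or between 0.065 and 0.13 with equal sums.

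The rest of the gluconeogenic pathway was described with 13 further enzymes that were tested. None passed 1 on the log2 scale in WD+7KC relative to WD, 3 were higher and 10 lower, and their median was -0.14, or 0.07 with equal sums, against -0.03 and 0.18 for all genes tested. The lowest change was that of Slc37a4, which carries glucose 6-phosphate into the endoplasmic reticulum for G6pc to act on. It was at 83.3 FPKM in WD and 61.5 in WD+7KC, against 79.0 in CD and 89.5 in CD+7KC, a change of -0.44 against WD. Its partner G6pc stood at 2.30 times its level in CD and 2.05 in CD+7KC, against 1.73 in WD and 1.10 in WD+7KC. The highest change was that of the aspartate aminotransferase Got1, 0.25, with 57.5 FPKM in WD and 68.5 in WD+7KC. Of the 13, 10 were higher and 3 lower in WD than in CD, their median being 0.21. Pck2, the mitochondrial form of Pck1, had the one change past 1, 1.48, at low levels of 1.02 FPKM in CD and 1.56 in CD+7KC, against 3.04 in WD and 2.77 in WD+7KC. Pck1 thus exceeded Pck2 by 280 to 831 times in FPKM. At the other end the malate dehydrogenase Mdh1 was at 487 and 505 FPKM in CD and CD+7KC, and 319 and 281 FPKM in WD and WD+7KC, -0.61 in WD relative to CD.

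Of 15 genes that control gluconeogenic transcription, none passed 1 in WD+7KC relative to WD or in WD relative to CD. With 7KC added to WD 6 were higher and 9 lower (median -0.14, or 0.08 with equal sums), from Cebpb at -0.50 to Foxa2 at 0.37. Cebpb, a factor that binds the Pck1 promoter, was highest in CD at 110 FPKM, against 75.5 in CD+7KC, while it was 79.2 in WD and 56.1 in WD+7KC. Foxa2, a pioneer factor of liver genes, was at 7.93 FPKM in WD and 10.3 in WD+7KC, against 6.68 in CD and 6.87 in CD+7KC. In WD relative to CD 6 were higher and 9 lower (median -0.20), from Nr0b2 at -0.72 to the kinase Sik1 at 0.63. Nr0b2, the repressor SHP, was at 24.9 FPKM in CD and 30.2 in CD+7KC, against 15.1 in WD and 18.5 in WD+7KC.

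Slc2a2, the GLUT2 gene on chromosome 3 (28697903 to 28731359, plus strand), was at 135 and 134 FPKM in CD and CD+7KC, and 129 and 105 FPKM in WD and WD+7KC. WD+7KC stood below the other libraries. Relative to WD, WD+7KC gave -0.30 (-0.35 to -0.25), the next lowest of the 8 genes after G6pc, and -0.08 (-0.13 to -0.034) with equal sums. CD+7KC relative to CD gave -0.009 and WD relative to CD -0.06. Of 11 further glucose transporters 3 had a mean of at least 1 FPKM, and all 3 were lower in WD+7KC than in WD (median -0.33, or -0.11 with equal sums), from Slc2a9 at -0.33 to Slc2a1, the transporter of most other cell types, at -0.05, whose change is within the shift between scalings. In WD relative to CD they ranged from -0.39 for Slc2a1 to 0.76 for Slc2a8. Slc2a2 exceeded Slc2a1 by 20.8 times in CD and 35.5 in CD+7KC, against 26.4 in WD and 22.2 in WD+7KC.

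**Figure D2:**
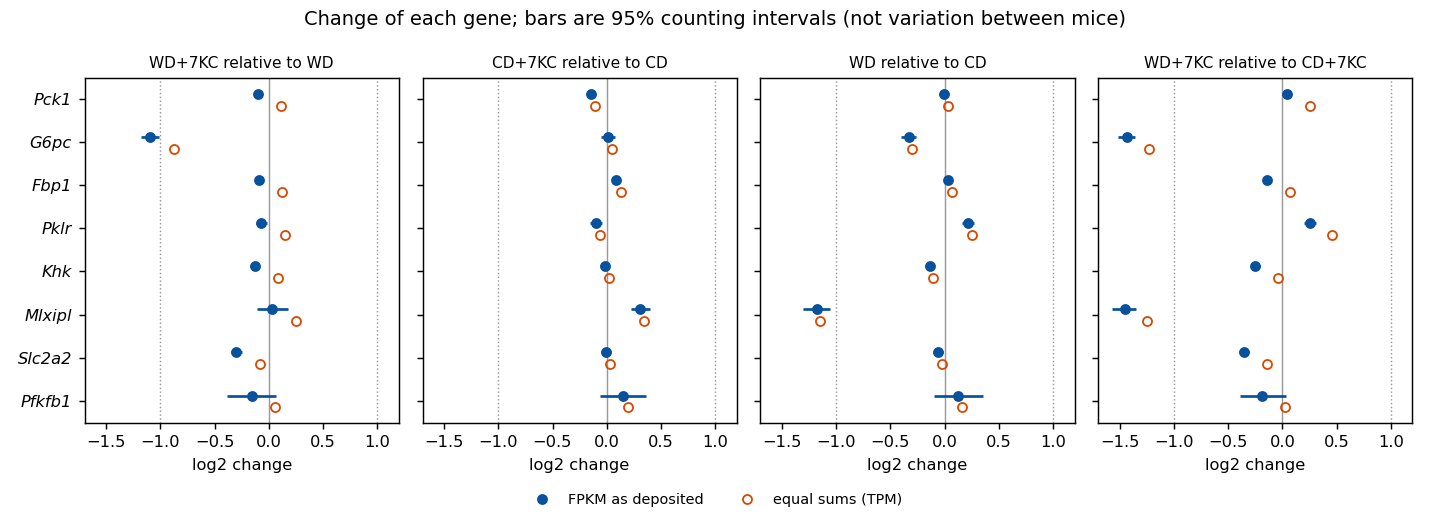
Log2 change of each gene (rows) in the 4 comparisons (panels), for FPKM as deposited (filled points with 95% counting intervals) and with equal sums (open points), with dotted lines at -1 and 1. G6pc lay at -1.10 and -0.88 in WD+7KC relative to WD and Mlxipl at -1.18 and -1.15 in WD relative to CD, while the other 6 genes stayed between -0.35 and 0.46 in all panels.

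Mlxipl encodes ChREBP, on chromosome 5 (135089890 to 135138382, plus strand). Its level was 22.4 FPKM in WD and 22.9 in WD+7KC, against 51.0 in CD and 63.2 in CD+7KC. Mlxipl was lower in WD than in CD and in WD+7KC than in CD+7KC, and the WD libraries were alike. WD was 55.9% below CD, a log2 change of -1.18 (counting interval -1.31 to -1.06), or -1.15 with equal sums, and 147 of the 10686 genes tested, 1.38%, had a lower change. WD+7KC relative to CD+7KC gave -1.46 (-1.57 to -1.35), or -1.25 with equal sums. The change with 7KC was 0.31 (0.22 to 0.40) under CD and 0.03 (-0.11 to 0.17) under WD. Mlx, the partner with which ChREBP binds DNA, was higher in the WD libraries, at 16.8 FPKM in CD and 18.6 in CD+7KC, against 24.2 in WD and 23.1 in WD+7KC. Mlxipl stood at 3.04 times Mlx in CD and 3.40 times in CD+7KC, against 0.929 in WD and 0.994 in WD+7KC.

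The 13 other genes of the ChREBP axis, its partner and genes known as its targets, gave 4 higher and 9 lower in WD relative to CD, the median being -0.29, and 2 of them passed -1. Thrsp, a promoter of fat synthesis, was at 928 and 1320 FPKM in CD and CD+7KC, and 410 and 328 FPKM in WD and WD+7KC, -1.18 in WD relative to CD and -2.01 in WD+7KC relative to CD+7KC. Elovl6, which elongates palmitate, was at 37.8 FPKM in WD and 51.6 in WD+7KC, against 81.2 in CD and 91.6 in CD+7KC, -1.10 in WD relative to CD. Both had their lower levels in the WD libraries, as Mlxipl did. Txnip, a regulator of glucose uptake, was at 77.1 FPKM in CD and 62.9 in CD+7KC, against 43.7 in WD and 49.2 in WD+7KC. The hormone gene Fgf21 had the highest change of the list, 0.92, with 18.4 and 18.3 FPKM in WD and WD+7KC, and 9.68 FPKM in CD. With 7KC added to WD 7 were higher and 6 lower (median 0.04, or 0.26 with equal sums), from Thrsp at -0.32 to the fatty acid synthase Fasn at 0.58. In CD+7KC relative to CD 11 of the 13 were higher (median 0.09), against 48.1% of all genes tested (median -0.005). Several of the rises were near 0, such as Acacb at 0.009 and Tkt at 0.03.

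Pklr encodes the pyruvate kinase of liver and red cells, on chromosome 3 (89136142 to 89146784, plus strand). It was at 201 FPKM in WD and 192 in WD+7KC, against 173 in CD and 162 in CD+7KC. Pklr was thus higher in WD than in CD and in WD+7KC than in CD+7KC, opposite to Mlxipl. WD relative to CD gave 0.22 (0.16 to 0.28) and WD+7KC relative to CD+7KC 0.25, or 0.46 with equal sums. With 7KC the change was -0.07 under WD (0.15 with equal sums) and -0.10 under CD. The ratio of Pklr to Mlxipl was 3.39 in CD and 2.55 in CD+7KC, and 8.98 in WD and 8.37 in WD+7KC. Hcn3, which overlaps Pklr on the other strand, was at 7.36 to 8.56 FPKM, and the strand setting of the counting is not given in the sources used here.

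Khk encodes ketohexokinase, which phosphorylates fructose on entry, on chromosome 5 (30921431 to 30931248, plus strand). Its level was 700 FPKM in CD and 692 in CD+7KC, against 637 in WD and 582 in WD+7KC. Sucrose, the source of dietary fructose, was higher in the WD diets. The WD libraries were below the CD libraries by 0.14 on the log2 scale without 7KC and by 0.25 with it, the latter by 0.04 with equal sums. Between WD+7KC and WD the change was -0.13 as deposited and 0.09 with equal sums. Of 4 other genes of fructose handling 1 was higher and 3 lower in WD relative to CD (median -0.14), from the fructose transporter Slc2a5 at -0.47 to the glycerate kinase Glyctk at 0.37. In WD+7KC relative to WD they ranged from the sorbitol dehydrogenase Sord at -0.33 to Slc2a5 at 0.36, with 2 higher and 2 lower (median -0.09, or 0.13 with equal sums).

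Pfkfb1 encodes the liver form of the bifunctional enzyme that sets fructose 2,6-bisphosphate, on chromosome X (150588229 to 150643878, plus strand). It was the lowest of the 8 genes, at 19.9 and 22.1 FPKM in CD and CD+7KC, and 21.7 and 19.4 FPKM in WD and WD+7KC, with 315 to 374 estimated reads. All 4 of its counting intervals included 0, such as -0.38 to 0.06 around -0.16 in WD+7KC relative to WD, so no difference could be detected at this depth. Apex2, which overlaps it on the other strand, was at 2.59 to 3.27 FPKM. Of the other enzymes of this metabolite 3 were tested. Pfkfb2, the heart form, was at 3.22 FPKM in WD and 5.07 in WD+7KC, against 4.44 in CD and 3.96 in CD+7KC, with changes of 0.64 when 7KC was added to WD and of -0.46 between WD and CD. Tigar, which removes the metabolite, had the lowest change in the former (-0.17) and the highest in the latter (0.20).

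Among the genes tested, 3.48% passed 1 on the log2 scale in either direction in WD+7KC relative to WD and 0.767% passed -1, where 1 of the 8 genes, G6pc, did so. In the same comparison 7 of the 8 were lower (median -0.12), while 54.5% of all genes were lower. The 8 genes are well expressed, and the 4671 genes averaging 10 FPKM or more, which include them, had the same median of -0.12. With equal sums only 2 of the 8, G6pc and Slc2a2, were lower. In CD+7KC relative to CD 2.04% of genes passed 1 and none of the 8 did. WD relative to CD had 4.65% past 1 and 2.04% past -1, and 1 of the 8, Mlxipl, was among the latter. In WD+7KC relative to CD+7KC 7.91% passed 1, and the 8 genes included 2, G6pc and Mlxipl, both lower, where 2.81% of genes passed -1. The comparisons share libraries and are not independent of each other.

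Of the genes past 1, 290 were higher and 82 lower in WD+7KC relative to WD, but 488 and 49 with equal sums. In WD+7KC relative to CD+7KC the counts were 545 and 300, and 794 and 204 with equal sums. Scaling to the geometric mean of the hepatocyte markers was a choice made after seeing the data. The split then was 585 and 42 in WD+7KC relative to WD, and 267 and 50 instead of 126 and 92 in CD+7KC relative to CD. In WD relative to CD it was 436 and 150 instead of 279 and 218. On that scale G6pc was -0.81 in WD+7KC relative to WD and Mlxipl -1.01 in WD relative to CD.

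**Figure D3:**
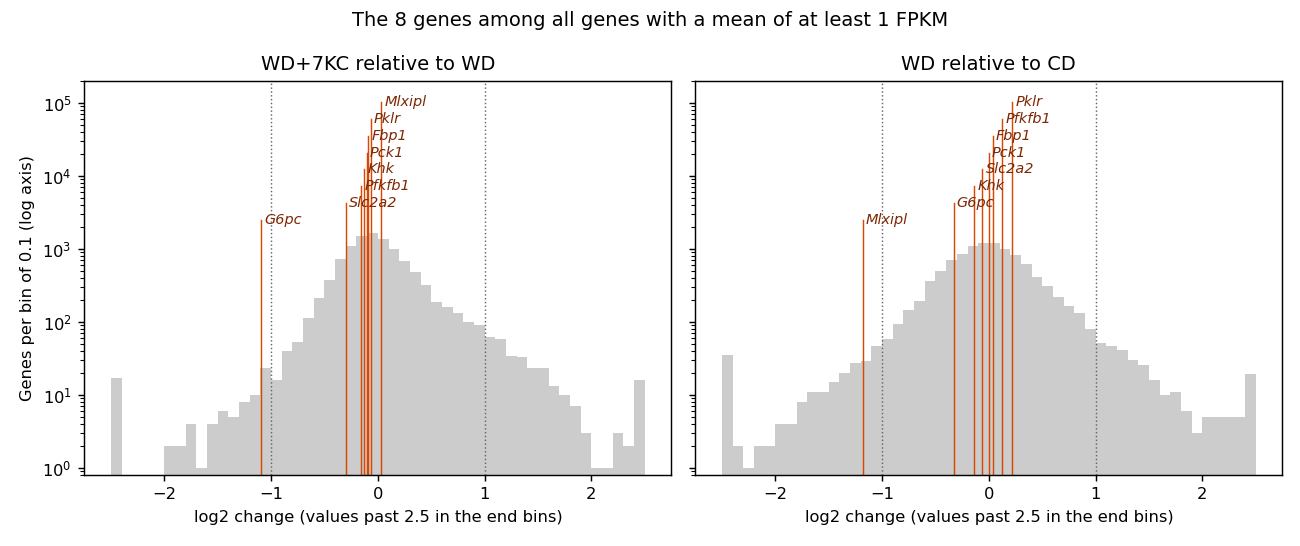
Histogram of log2 changes of the 10686 genes tested (grey, genes per bin on a log axis, outlying values in the end bins), with each of the 8 genes as a labelled line whose height has no meaning, for WD+7KC relative to WD (left) and WD relative to CD (right). G6pc at -1.10 on the left and Mlxipl at -1.18 on the right lay in the lower tail and the other 7 genes of each panel near the centre.

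Among the pathway lists, glycolysis was the one with genes past 1 in WD+7KC relative to WD. Of 17 further enzymes tested, 10 were higher and 7 lower (median 0.06, or 0.27 with equal sums). Of these, 2 hexokinases passed 1, where 2.71% of all genes tested did so upward. Hk3, which is found in white blood cells, was at 0.674 FPKM in CD and 1.54 in CD+7KC, against 1.90 in WD and 4.03 in WD+7KC, 1.04 in WD+7KC relative to WD and 1.08 in CD+7KC relative to CD. Hk2 was at 1.98 and 1.65 FPKM in CD and CD+7KC, and 1.21 and 2.73 FPKM in WD and WD+7KC, with a change of 1.11. Both are low-abundance transcripts in liver. Pkm, the pyruvate kinase of most tissues other than hepatocytes, was at 14.1 FPKM in WD and 28.3 in WD+7KC, against 9.65 in CD and 9.01 in CD+7KC, 0.998 in WD+7KC relative to WD and 1.64 in WD+7KC relative to CD+7KC. Pklr thus stood at 17.9 times Pkm in both CD libraries, 14.3 times in WD and 6.79 times in WD+7KC.

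Relative to CD, 12 of the 17 were higher in WD and 5 lower (median 0.19). Hk3 at 1.37 and Aldoc, the brain aldolase, at 1.24 passed 1, where 2.61% of all genes tested did so upward, and Hk2 was lowest at -0.67. Aldoc was at 0.843 FPKM in CD and 1.02 in CD+7KC, against 2.13 in WD and 1.59 in WD+7KC, the lowest change of the list in WD+7KC relative to WD at -0.40. All 12 macrophage and Kupffer cell markers were higher in each of the 4 comparisons, as Hk3 was, while Pkm was lower in CD+7KC relative to CD (-0.10). The median changes of the markers were 0.91 in WD+7KC relative to WD and 0.59 in CD+7KC relative to CD. They were 0.78 in WD relative to CD and 1.11 in WD+7KC relative to CD+7KC. The Kupffer cell gene Clec4f was at 20.9 and 40.2 FPKM in CD and CD+7KC, and at 29.2 and 64.5 in WD and WD+7KC. All 8 endothelial markers passed 1 in WD+7KC relative to WD, with a median of 1.52. The part of these cell types in the levels of Hk3, Hk2, Pkm and G6pc was not tested.

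**Figure D4:**
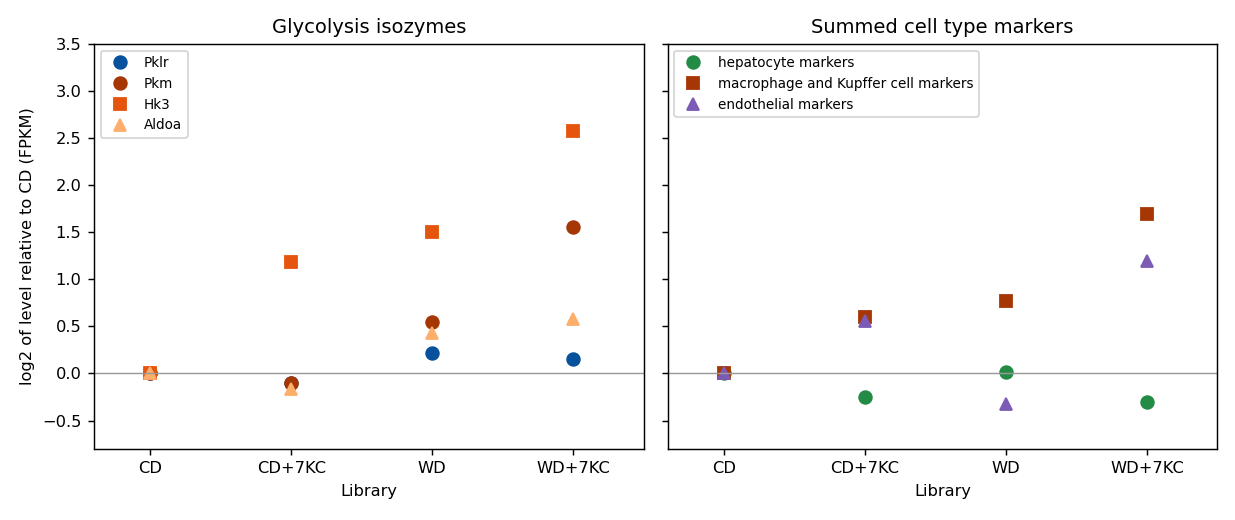
Log2 of the level relative to CD for the liver glycolysis enzyme Pklr and 3 found in other cells or more widely (Pkm, Hk3, Aldoa), left, and for summed cell type markers, right, in the 4 libraries (1 point per library, no replicates, enzymes chosen after their values were seen). In WD+7KC Hk3 was at 2.58, Pkm at 1.55 and macrophage and Kupffer cell markers at 1.69, while Pklr was at 0.15 and hepatocyte markers at -0.31. All points are FPKM as deposited without the 0.1 that was added for the changes in the text, and the scaling matters for WD+7KC. There the median change of hepatocyte markers relative to WD was -0.26 as deposited and -0.05 with equal sums. For macrophage and Kupffer cell markers it was 0.91 and 1.12.

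Liver lobules make glucose mainly around the portal vein, and 10 periportal and 10 pericentral markers were read beside G6pc. With 7KC added to WD 3 of each list were higher and 7 lower, with medians of -0.14 for periportal and -0.12 for pericentral markers (0.08 and 0.09 with equal sums), none past 1. In WD+7KC relative to CD+7KC 3 periportal (Cyp2f2, Hal and Pigr) and 2 pericentral markers (Cyp1a2 and Rgn) passed -1, with medians of -0.68 and -0.22 (-0.47 and -0.008 with equal sums). There 2.81% of all genes tested passed -1, and 2 markers of each list were higher and 8 lower. The summed periportal markers were 3840 and 4190 FPKM in CD and CD+7KC, and 3580 and 3070 FPKM in WD and WD+7KC, and the summed pericentral markers 4970, 4450, 3800 and 2500 in the same order. As deposited, the lowest sums of both lists were in WD+7KC, where G6pc was lowest, and their part in its level was not tested. These sums were not rescaled, and WD+7KC also had the lowest FPKM sum over all genes, 602059. The pericentral sum was mostly Cyp2e1, at 3440 and 2780 FPKM in CD and CD+7KC, and 2590 and 1420 in WD and WD+7KC. Hbb-bs, a beta globin gene whose presence depends on the mouse strain, was at 0.00604 FPKM in CD and 0.00593 in CD+7KC but at 13.5 in WD and 10.4 in WD+7KC. It has a near-identical copy, so its level is uncertain. Hbb-bs was higher with WD where Mlxipl was lower. Whether the CD and WD libraries differ in strain background, and the part of such a difference in the Mlxipl result, was not tested. The other pancreas and blood markers tested were Alas2 and Hba-a1. Alas2 was lower with WD, at 86.5 and 81.3 FPKM in CD and CD+7KC, and 30.9 and 23.3 in WD and WD+7KC. Hba-a1 was at 89.8 and 54.5 FPKM in CD and CD+7KC, and 146 and 70.0 in WD and WD+7KC.

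No gene of pyruvate use, glycogen metabolism, the pentose phosphate pathway, the feeding state or the circadian clock passed 1 in WD+7KC relative to WD or in WD relative to CD. Some did in the other comparisons. In CD+7KC relative to CD, where 2.04% of all genes tested passed 1, Igfbp1 of the feeding state was at -1.13. WD+7KC relative to CD+7KC, where 7.91% did, had the glycogen genes Ppp1r3c at -1.75 and Pgm1 at 1.19. The pentose phosphate gene G6pdx was at 1.24 there. Of 14 genes of pyruvate use 2 were higher and 12 lower in WD+7KC relative to WD (median -0.18, 0.03 with equal sums), from Mpc1, a subunit of the mitochondrial pyruvate carrier, at -0.65 to Pdk4, which shuts pyruvate dehydrogenase, at 0.56. Mpc1 was at 578 FPKM in WD and 369 in WD+7KC, against 451 in CD and 490 in CD+7KC. The same genes were the extremes in WD relative to CD with the signs exchanged, Mpc1 at 0.36 and Pdk4 at -0.82, and 6 were higher and 8 lower. Of 15 glycogen genes 4 were higher and 11 lower in both comparisons, with medians of -0.05 and -0.08, the former 0.17 with equal sums. The glycogen targeting subunit Ppp1r3g was at -0.66 and Ugp2, which makes UDP-glucose, at 0.20 in WD+7KC relative to WD. In WD relative to CD the targeting subunit Ppp1r3c was at -0.89 and the phosphoglucomutase Pgm1 at 0.98.

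Of 8 pentose phosphate genes 4 were higher and 4 lower in WD+7KC relative to WD (median 0.01), and 2 were higher and 6 lower in WD relative to CD (median -0.11). Both comparisons had G6pdx, the entry enzyme, highest (0.71 and 0.60) and Rpe lowest (-0.43 and -0.34). Genes that follow feeding and insulin, 11 tested, gave 3 higher and 8 lower in WD+7KC relative to WD (median -0.025, or 0.19 with equal sums), from Trib3 at -0.71 to Pdk4 at 0.56. In WD relative to CD 5 were higher and 6 lower, from Igfbp1 at -0.96 to Fgf21 at 0.92. Igfbp1, which insulin represses along with G6pc, was at 90.9 FPKM in CD and 41.6 in CD+7KC, against 46.7 in WD and 47.6 in WD+7KC. The part of insulin in the level of G6pc was not tested. Of 13 circadian clock genes, read because G6pc and Pck1 vary with the time of day, 3 were higher and 10 lower in WD+7KC relative to WD (median -0.20, 0.02 with equal sums), from Ciart at -0.69 to Per2 at 0.45. Relative to CD 6 were higher and 7 lower in WD, from Clock at -0.55 to Per1 at 0.56.

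**Figure D5:**
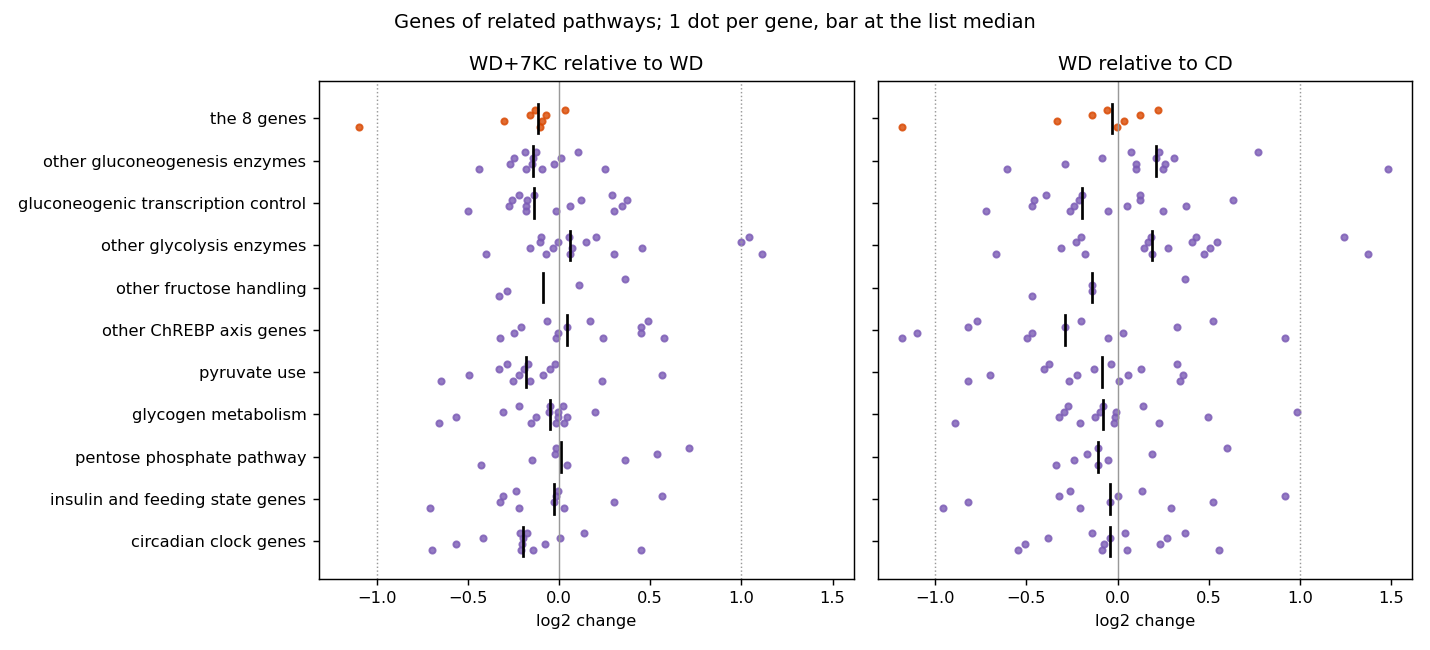
Log2 change (x axis) of each gene tested in the 8 genes and 10 related lists (rows), 1 dot per gene with a bar at the list's median, for WD+7KC relative to WD (left) and WD relative to CD (right). The medians lay between -0.20 and 0.06 on the left and between -0.29 and 0.21 on the right, and G6pc and Mlxipl were each farther from their list's median than the other 7 of the 8 genes.

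Genes of likest pattern were sought for Mlxipl and G6pc, the genes with the widest range, by the root mean square difference of log2 levels, each centred on its mean over the 4 libraries. For Mlxipl these were Akr1d1, a reductase of bile acid synthesis, at a difference of 0.037, H2-L, a class I histocompatibility gene, at 0.052, and Glt1d1 at 0.057, and 65 genes lay within 0.2. Akr1d1 was at 64.7 and 80.1 FPKM in CD and CD+7KC, and 30.2 and 29.0 FPKM in WD and WD+7KC. For G6pc they were Cyp3a11, a drug-metabolising cytochrome P450, at 0.070, the carboxylesterase Ces1b at 0.078 and 2310001H17Rik at 0.097, and 30 genes lay within 0.2. Cyp3a11 was at 2720 FPKM in WD and 1210 in WD+7KC, against 3740 in CD and 3490 in CD+7KC. With 4 libraries a likeness of this kind is a description of the libraries.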

How the data were processed

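Polyadenylated RNA of 4 liver samples (CD, CD+7KC, WD, WD+7KC, 1 library each) was sequenced by the authors as stranded single-end libraries. Per the labels the reads were mapped to mm10 with TopHat2 2.0.13, Bowtie2 2.2.3 and SAMtools 0.1.19, and the authors deposited 1 FPKM value per gene symbol, computed with Cufflinks 2.2.1. The annotation, the Cufflinks options and the strand setting are not given in the sources used here. Because FPKM holds no counts and each group has 1 library, no test was run.

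Changes were computed as log2 of FPKM plus 0.1, which understates the change of low genes, over the 10686 genes whose mean reached 1 FPKM (the genes tested), and changes past 1 were counted. Reads were estimated from FPKM steps of 14081 genes with a single RefSeq mRNA, with 200 bases subtracted from its length; 69.4% to 70.4% of low values lay within 0.1 of a whole read. Counting intervals are exact (Clopper-Pearson, 95%) and cover counting error only. They take the longest linked RefSeq mRNA, an assumption for Pklr and Khk, which have several. Positions are from GENCODE vM21 (GRCm38).

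The named genes are all 8 members, the highest and lowest change of each pathway list in WD+7KC relative to WD and in WD relative to CD, pathway genes past 1, and 3 genes of likest pattern for each of the 2 members of widest range; ratios within a library, Hbb-bs, Mlx, Txnip and Clec4f were added after their values were seen. Cell marker lists are given as sums and counts, and those of their genes that are named were picked after their values were seen, a departure from the rule, which covered every list. Some genes of the lists are not reported here and were left out of the list counts. The members and lists were chosen with earlier results of these data known. Alternatives were pseudocounts of 0.01 and 1, no filter and a mean of at least 10 FPKM, 4 other scalings, a threshold of 1.5-fold and, added after seeing the data, scaling to hepatocyte markers.

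Other marker lists, summed over each library, gave stellate cells 153 to 195 FPKM, cholangiocytes 46.4 to 186 (Spp1 mainly, with Krt19 at 0.632 to 1.09), lymphocytes and neutrophils 19.2 to 23.2, fat 182 to 314 (Plin1 and Lep at 0 in all), kidney and intestine 209 to 289 (Fabp2 mainly), and pancreas and blood 104 to 191 (Prss2 and Cpa1 at 0 in all). The code was tested on simulated data. Python 3.11.15, numpy 2.4.6, pandas 2.3.3, scipy 1.17.1 and matplotlib 3.10.9 were used.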

Additional observations from a re-analysis of the deposited data

Results flagged for a closer look

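G6pc had opposite signs of change with 7KC under the diets, -1.10 under WD and 0.01 under CD, a difference of -1.11 on the log2 scale. The estimate under CD lay within counting error of 0. The 7KC changes of Fbp1 (-0.09 under WD, 0.09 under CD, difference -0.18) and of Pfkfb1 (-0.16 and 0.15, difference -0.31) also differed in sign. Between the diets, the change from CD to WD had opposite signs without and with 7KC for Pck1 (-0.001 and 0.04, difference -0.042), Fbp1 (0.04 and -0.14, difference 0.18) and Pfkfb1 (0.12 and -0.19, difference 0.31). With 1 library per group none of these differences was tested. With equal sums G6pc kept opposite signs (-0.88 and 0.05), and the other 5 differences no longer crossed 0: the 7KC changes were 0.13 under both diets for Fbp1 and 0.06 and 0.19 for Pfkfb1, and the diet changes were 0.03 and 0.25 for Pck1, 0.07 under both for Fbp1, and 0.16 and 0.02 for Pfkfb1.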

How the results depend on the processing

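No paired analysis was possible because each group has 1 library. For the same reason no library could be left out, and depth (for Pfkfb1) and scaling set the limits. The count of 1 of the 8 genes past 1 in WD+7KC relative to WD went to 0 with equal sums, with equal sums without the 20 highest genes (G6pc -0.92) and relative to hepatocyte markers. Under upper quartile (G6pc -1.02) and median-ratio scaling (-1.09), other pseudocounts, filters and the threshold of 1.5-fold it stayed at 1, and no alternative moved the counts of 0, 1 and 2 in CD+7KC relative to CD, WD relative to CD and WD+7KC relative to CD+7KC. With equal sums 5 genes (Pck1, Fbp1, Pklr, Khk and Pfkfb1) changed sign in WD+7KC relative to WD, Khk and Slc2a2 in CD+7KC relative to CD, Pck1 in WD relative to CD, and Fbp1 and Pfkfb1 in WD+7KC relative to CD+7KC.

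The counts of all genes past 1, in the order WD+7KC relative to WD, CD+7KC relative to CD, WD relative to CD and WD+7KC relative to CD+7KC, were 372, 218, 497 and 845. They were 168, 100, 260 and 507 with a pseudocount of 1, 1418, 1059, 1511 and 2007 without a filter, 67, 55, 137 and 257 at a mean of at least 10 FPKM, and 1124, 794, 1656 and 2150 past 1.5-fold. Relative to hepatocyte markers the first was 627. Fewer genes are tested under the stricter filter. The share of those calls that were higher, 78.0% in WD+7KC relative to WD, was 90.9% with equal sums and 52.2% at a mean of at least 10 FPKM.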
